A study of Homo sapiens with 6 samples.

Results

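The Notch genes described here are 4 receptors (NOTCH1, NOTCH2, NOTCH3 and NOTCH4), 3 ligands (JAG1, JAG2 and DLL1) and 3 target genes (HES1, HEY1 and HEYL). They were taken by gene symbol from the platform annotation of Affymetrix Clariom S human arrays, and all 10 were found, with a single probe set each, among 17687 genes. The arrays compared 3 CD109-KO clones of A431 cells (26, 32 and 180) with 3 parental A431 samples (5, 2 and 6, labelled wild type). A431 cells come from a human epidermoid carcinoma and are a standard squamous line. The knockout used CRISPR/Cas9 with guides against exon 1 or exon 2 of CD109, and each clone grew from a single sorted cell without surface CD109, whereas the parental cells were not cloned. The labels name no other treatment, although their treatment note on the knockout is also attached to the parental samples, whose genotype is given as wild type, and the sources used here do not tell which guide made which clone. The study describes the arrays as biological replicates with technical triplicates. How the parental numbers relate to separate cultures is not in the labels, so that the spread behind the p-values may in part be technical.

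Notch receptors are membrane proteins that neighbouring cells switch on through the Jagged and Delta ligands on their own surface. Binding exposes the receptor to cleavage by an ADAM protease and then by the gamma-secretase complex, and the freed intracellular part enters the nucleus and binds the DNA-binding protein RBPJ. RBPJ then switches from repression to activation of targets such as the HES and HEY genes, which encode basic helix-loop-helix repressors. In stratified epithelium Notch is known for driving keratinocytes out of the basal layer into differentiation, and loss of NOTCH1 function is common in squamous carcinoma. NOTCH4 is best known from endothelium, and NOTCH3 and HEYL from vascular smooth muscle.

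Because RBPJ reads DNA directly, the sequences before the start sites of the target genes were searched first. RefSeq promoters of GRCh38.p14 were used for 8 of the 10 genes, and the 250 bases before the start site were read. No promoter of that length was found for DLL1. HEY1 was left out by hand and its promoter was not searched, so that the target genes are not all covered. The core motif TGGGAA and the longer GTGNGAA, in which N is any base, were searched on both strands. A match to GTGGGAA counts for both motifs. Shown are HES1 at chr3:194135898-194136147 on the plus strand, HES4 at chr1:1000098-1000347, HES5 at chr1:2530264-2530513 and HEYL at chr1:39639644-39639893, the last 3 on the minus strand, because HES1 and HEYL moved in opposite directions and HES4 and HES5 are their close relatives. They are written 5′ to 3′ along each gene, and capitals mark the matches to either motif or to its reverse complement.
HES1: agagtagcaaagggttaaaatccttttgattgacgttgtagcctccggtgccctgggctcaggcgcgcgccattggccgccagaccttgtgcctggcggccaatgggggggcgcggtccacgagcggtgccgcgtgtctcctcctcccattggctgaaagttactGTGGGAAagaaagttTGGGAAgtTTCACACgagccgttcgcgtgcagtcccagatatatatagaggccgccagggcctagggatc
HES4: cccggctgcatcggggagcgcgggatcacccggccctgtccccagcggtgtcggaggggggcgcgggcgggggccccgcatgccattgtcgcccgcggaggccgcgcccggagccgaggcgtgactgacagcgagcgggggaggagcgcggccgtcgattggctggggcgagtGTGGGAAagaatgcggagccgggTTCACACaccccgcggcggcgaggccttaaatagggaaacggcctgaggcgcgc
HES5: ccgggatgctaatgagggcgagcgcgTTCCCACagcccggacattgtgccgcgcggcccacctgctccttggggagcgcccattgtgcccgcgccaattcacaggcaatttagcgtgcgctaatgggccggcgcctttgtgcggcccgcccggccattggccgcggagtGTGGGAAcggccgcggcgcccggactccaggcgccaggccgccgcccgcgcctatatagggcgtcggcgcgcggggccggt
HEYL: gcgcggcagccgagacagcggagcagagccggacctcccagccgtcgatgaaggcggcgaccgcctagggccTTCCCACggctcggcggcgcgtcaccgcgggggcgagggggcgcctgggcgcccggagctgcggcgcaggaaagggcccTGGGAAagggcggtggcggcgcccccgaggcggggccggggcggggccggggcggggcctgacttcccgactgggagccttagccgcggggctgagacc

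Of the 8 promoters of the set, 2 held TGGGAA or GTGNGAA, those of HES1 and HEYL, which is near the 26.3% of all promoters that held either. In 27305 promoters of the same length, TGGGAA occurred in 21.1% and at least 2 times in 2.92%. GTGNGAA occurred in 11.8%. HES1 had TGGGAA from -84 to -79 and from -70 to -65, counted from the start site, and GTGNGAA from -85 to -79 on its own strand and from -62 to -56 on the opposite strand. In HES4 the longer motif stood from -77 to -71 on its own strand and from -54 to -48 on the opposite strand. The facing copies were therefore 16 bases apart in both genes, a pattern found in 3 of 27305 promoters (0.011%), those of HES1, HES4 and ITIH4. The spacing was taken from HES1, so that its own match is no result. HEYL had TGGGAA from -178 to -173 on the opposite strand and from -99 to -94 on its own strand, and HES5 had GTGNGAA from -224 to -218 and from -81 to -75. The letters CACGAG, an N-box to which HES proteins can bind, stood from -132 to -127 and from -58 to -53 in HES1. Within the set they also stood in NOTCH3, from -211 to -206, and they occurred in 5.62% of all promoters. Such matches are letters in a window and do not show binding.

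**Figure D1:**
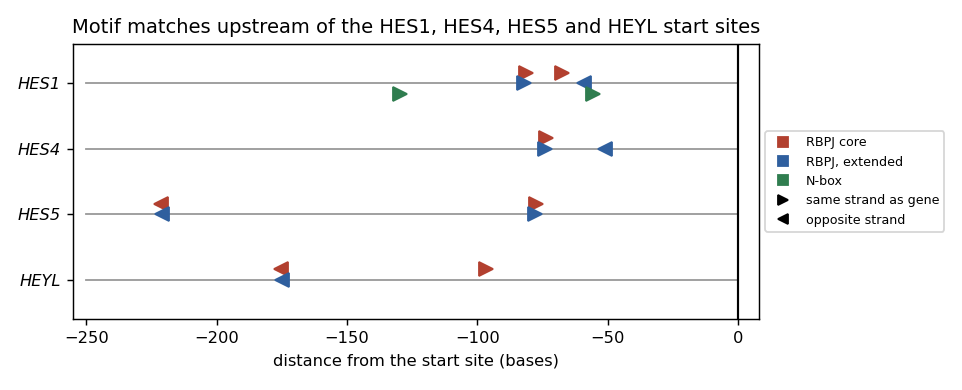
Motif matches in the 250 bases before the start sites of HES1, HES4, HES5 and HEYL, with distance from the start site in bases on the x axis. Colours mark the core TGGGAA, the longer GTGNGAA and the N-box CACGAG, and arrowheads the strand. HES1 and HES4 each show facing copies of the longer motif, 16 bases apart, close to the start site.

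The values are the authors' deposited log2 signals, and limma tested the difference of CD109-KO clones from parental samples. Calls required at least a 2-fold difference together with an adjusted p under 0.01. The arrays differed widely: 63.1% of all genes were called, 36.2% higher and 26.8% lower, and in 80.7% the groups did not overlap. The median gene had a log2 fold change of 0.51. CD109 itself had log2 signals of 3.64, 3.45 and 3.62 in CD109-KO clones 26, 32 and 180, against 7.57, 7.75 and 8.13 in parental samples 5, 2 and 6. The level that 95% of an array's olfactory receptor genes did not exceed was taken as its background and was 5.51 to 5.71 in CD109-KO arrays, against 4.07 to 4.20 in the parental ones. Of 7 measured markers of squamous epithelium all 7 were lower, and their mean log2 signal was 5.89 to 6.10 in CD109-KO arrays, against 10.25 to 10.56 in those of parental cells. CDH1, EPCAM and DSG3 lay under the background in all 3 CD109-KO arrays, EGFR lay above it in 1, and KRT5, KRT14 and SFN lay above it in all 3. Of the defining markers of the labelled cell type, 3 of 7 were thus not detected in any clone and 3 of 7 were detected in every clone.

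Of the 10 Notch genes, 4 were higher (NOTCH3, NOTCH4, HEY1 and HEYL), 4 were lower (NOTCH2, JAG1, DLL1 and HES1) and 2 were not called (NOTCH1 and JAG2). The share called was thus 8 of 10, against a background of 63.1% of all genes. In all 10 the groups did not overlap, 6 with CD109-KO above and 4 with CD109-KO below. Over all genes that share was 80.7%, with CD109-KO above in 48.9% and below in 31.8%. Their median log2 fold change was 0.60, near the 0.51 of all genes. The 4 lower genes had the highest parental means, HES1 9.44, NOTCH2 8.26, JAG1 7.75 and DLL1 7.16, followed by JAG2 at 7.06. Direction thus followed the parental signal level. The interquartile range over gene probe sets was 2.44 to 2.49 in CD109-KO arrays, against 3.25 to 3.51 in parental ones. The part of this narrower spread in the directions was not tested. In these bulk samples fewer cells of a type and less RNA per cell cannot be told apart.

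**Figure D2:**
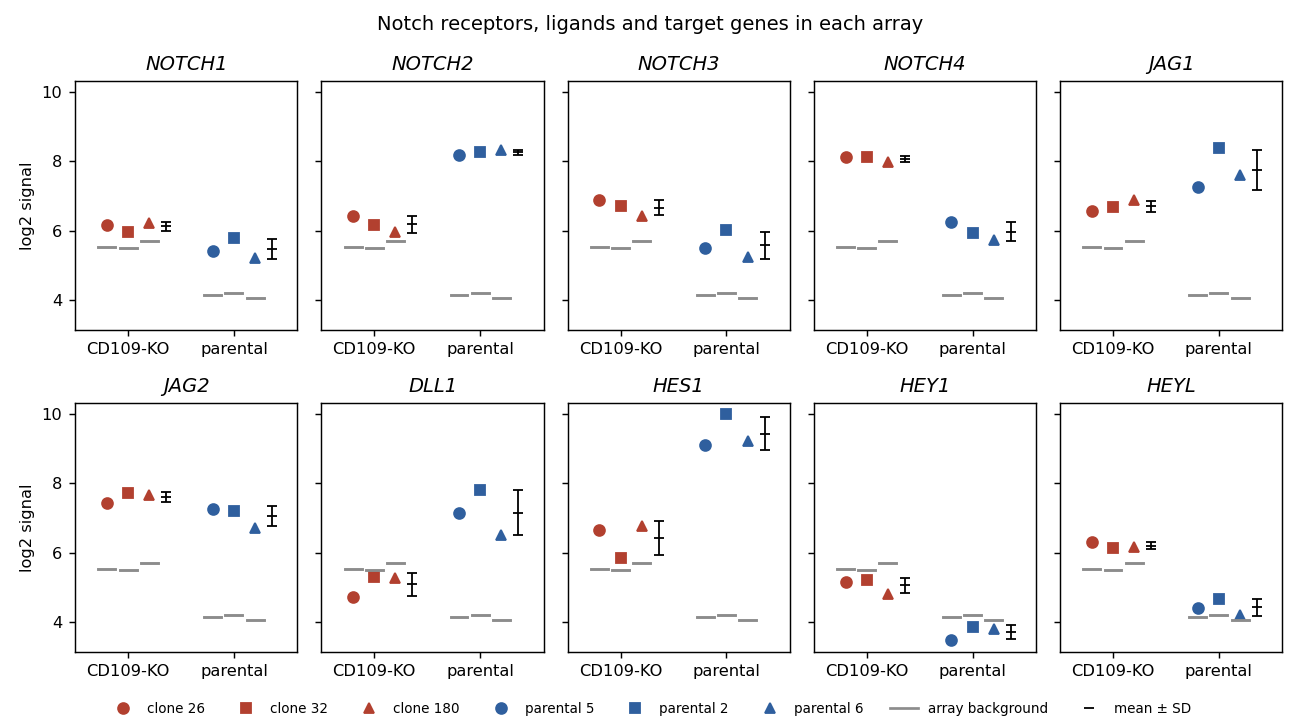
Log2 signal (y axis) of each Notch gene in every array, with CD109-KO clones in red and parental samples in blue. Grey lines give each array's background and black bars the mean ± SD (n = 3). HES1 and NOTCH2 lie far lower in the clones, NOTCH4 far higher, and HEY1 lies under the background in all 6 arrays.

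Among the ligands, DLL1 and JAG1 were lower and JAG2 was not called. DLL1, a Delta-type ligand on chromosome 6 from 170282206 to 170291078, had log2 signals of 4.71, 5.29 and 5.27 in clones 26, 32 and 180, against 7.14, 7.82 and 6.51 in parental samples 5, 2 and 6. All 3 clones were below the background of their arrays and all 3 parental samples above it. The log2 fold change was -2.06 (SE, standard error, 0.33, limma adjusted p = 0.00015), and measured against the background DLL1 was at least 2.97-fold lower. This bound sets the parental mean against the mean of each clone's background level. Like every such bound below, it holds only for the values as deposited.

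JAG1, the Jagged ligand mutated in Alagille syndrome, on chromosome 20 from 10637684 to 10673999, gave 6.56, 6.69 and 6.87 in clones 26, 32 and 180, against 7.27, 8.39 and 7.59 in parental samples 5, 2 and 6. The groups were 0.39 apart, less than the spread of the parental samples (SD 0.58, n = 3). The log2 fold change of -1.04 (SE 0.29, limma adjusted p = 0.00649) lay just past the threshold. Leaving out any array but parental 5 ended the call, with values of -0.73 to -1.28 over the 6 omissions, and without parental 2 it was -0.73. JAG2, on chromosome 14 from 105140995 to 105168776, gave 7.44, 7.72 and 7.66 in clones 26, 32 and 180, against 7.25, 7.21 and 6.72 in parental samples 5, 2 and 6. Its log2 fold change of 0.55 (95% interval 0.03 to 1.06, limma adjusted p = 0.0499) did not reach a fold change of 2, and 51.0% of all genes had a smaller one.

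The receptors moved apart. NOTCH4, on chromosome 6 from 32194843 to 32224067, gave 8.12, 8.11 and 7.98 in clones 26, 32 and 180, against 6.25, 5.94 and 5.72 in parental samples 5, 2 and 6. The clones lay close together, and the lowest was 1.73 above the highest parental sample. The log2 fold change was 2.10 (SE 0.23, limma adjusted p = 1.06e-05), above that of 95.5% of all genes. NOTCH3, on chromosome 19 from 15159038 to 15200995, gave 6.87, 6.70 and 6.42 in the clones, and 5.50, 6.01 and 5.24 in the parental samples, in the same order. Its log2 fold change of 1.08 (SE 0.26, limma adjusted p = 0.00251) was not called when CD109-KO clone 26 or 32 or parental sample 5 or 6 was left out (0.91 to 1.06).

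NOTCH2, on chromosome 1 from 119911553 to 120069662, was the receptor that fell. It gave 6.43, 6.15 and 5.95 in clones 26, 32 and 180, against 8.19, 8.26 and 8.33 in parental samples 5, 2 and 6. The parental samples were nearly alike (SD 0.07, n = 3), and the log2 fold change was -2.08 (SE 0.22, limma adjusted p = 9.83e-06). NOTCH2NLA, a human gene that arose by partial duplication of NOTCH2, had 5.58, 4.83 and 5.50 in the clones and 7.95, 7.64 and 7.90 in the parental samples, and a log2 fold change of -2.53 (limma adjusted p = 6.83e-06). Where the probes lie is not known here, so that signal shared between NOTCH2 and its copies makes both values uncertain. NOTCH1, the main receptor of keratinocytes, on chromosome 9 from 136494433 to 136546048, gave 6.17, 5.97 and 6.22 in the clones and 5.42, 5.78 and 5.22 in the parental samples. Its log2 fold change of 0.65 (95% interval 0.14 to 1.16, limma adjusted p = 0.024) was not called, and 53.5% of all genes had a smaller one.

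HES1, the classical Notch target, on chromosome 3 from 194136148 to 194138732, had the largest difference of the 10 genes. It gave 6.66, 5.86 and 6.77 in clones 26, 32 and 180, against 9.11, 9.99 and 9.21 in parental samples 5, 2 and 6. The highest clone was 2.34 below the lowest parental sample, and clone 32 was 0.85 below the mean of the other clones. The log2 fold change was -3.01 (SE 0.31, limma adjusted p = 8.48e-06), lower than that of all but 8.36% of genes. HEYL, on chromosome 1 from 39623435 to 39639643, moved the other way, with 6.32, 6.13 and 6.17 in the clones and 4.40, 4.67 and 4.20 in the parental samples. It lay above the background in all arrays, although by little in the parental ones. In no array did it pass the 99th percentile of olfactory receptor genes. Its log2 fold change was 1.79 (SE 0.22, limma adjusted p = 2.95e-05). The mean background level was 5.59 in CD109-KO arrays, against 4.14 in parental ones, and its part in the HEYL difference was not tested.

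HEY1, a target known from endothelium and bone, lies on chromosome 8 from 79764010 to 79767767. It gave 5.15, 5.23 and 4.80 in clones 26, 32 and 180, against 3.47, 3.86 and 3.80 in parental samples 5, 2 and 6. All 6 values lay under the background of their arrays, so that the log2 difference of 1.35 (SE 0.23, limma adjusted p = 0.000275) gives no fold. The mean background level was itself 5.59 in CD109-KO arrays, against 4.14 in parental ones, and its part in the difference was not tested.

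Among the clones, the SD of the 10 genes was 0.08 to 0.49 with a median of 0.19, and among the parental samples 0.07 to 0.65 with a median of 0.29. Over all genes the median SD was 0.24 in the clones and 0.30 in the parental samples. HES1 varied most among the clones and DLL1 most among the parental samples. Parental sample 2 had the highest value of its group in 7 of the 10 genes and the lowest in none, while parental sample 6 was lowest in 6. No clone was highest in more than 4 or lowest in more than 4.

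**Figure D3:**
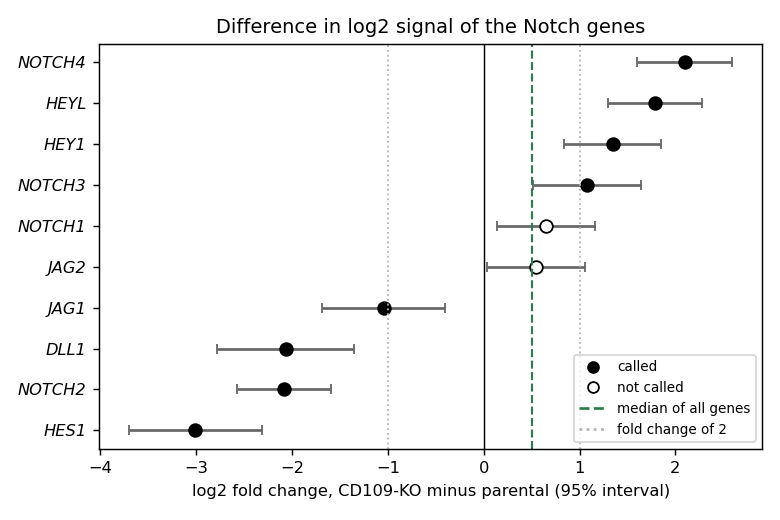
Log2 fold change of each Notch gene, CD109-KO minus parental (x axis), with 95% intervals from limma. Filled points were called and open points were not, and the dashed line is the median of all genes at 0.51. NOTCH4 (2.10) and HES1 (-3.01) stand at the ends, and NOTCH1 and JAG2 lie near the median gene.

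The direction of several of these genes depended on how the arrays were scaled. Antigenomic background controls, whose sequences match no human gene, and spiked-in hybridization controls were brighter in CD109-KO arrays, by 1.21 and 0.90 on the log2 scale. Of 29 genes used by every cell, 17 were lower and 1 was higher in CD109-KO arrays, with a median log2 fold change of -1.93. Centring on the antigenomic controls moved the median of all genes by -1.21, the hybridization controls by -0.90, the genes used by every cell by 2.29, and a repeated quantile normalization by -0.19. HES1 was lower under all 4, but short of the threshold after centring on genes used by every cell (-0.71). NOTCH4 was higher under all 4, short of the threshold with antigenomic controls (0.89). HEYL kept a positive sign and was not called with antigenomic (0.58) or hybridization controls (0.89). NOTCH2 and DLL1 were lower except after centring on genes used by every cell (0.21 and 0.23, not called), where JAG1 was called higher (1.25). NOTCH3 was -0.13 with antigenomic controls. NOTCH1 was -0.56 and -0.25 and JAG2 -0.66 and -0.35 with antigenomic and hybridization controls. After the repeated quantile normalization JAG2 was called higher (1.11) and JAG1 was not called (-0.56). A centring moves every gene of an array alike and leaves the order of the 10 genes as it is. The repeated quantile normalization changed that order, although HES1 and NOTCH4 stayed at the ends. Relative to its median gene, HES1 then lay at -2.69, JAG1 at -0.88 and NOTCH4 at 2.25. JAG2 lay at 0.79, past NOTCH1 at 0.31 and HEY1 at 0.61. Relative to the median gene as deposited, HES1 lay at -3.51, NOTCH2 at -2.59, DLL1 at -2.57, JAG1 at -1.55, JAG2 at 0.04, NOTCH1 at 0.14, NOTCH3 at 0.57, HEY1 at 0.84, HEYL at 1.28 and NOTCH4 at 1.59 on the log2 scale.

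**Figure D4:**
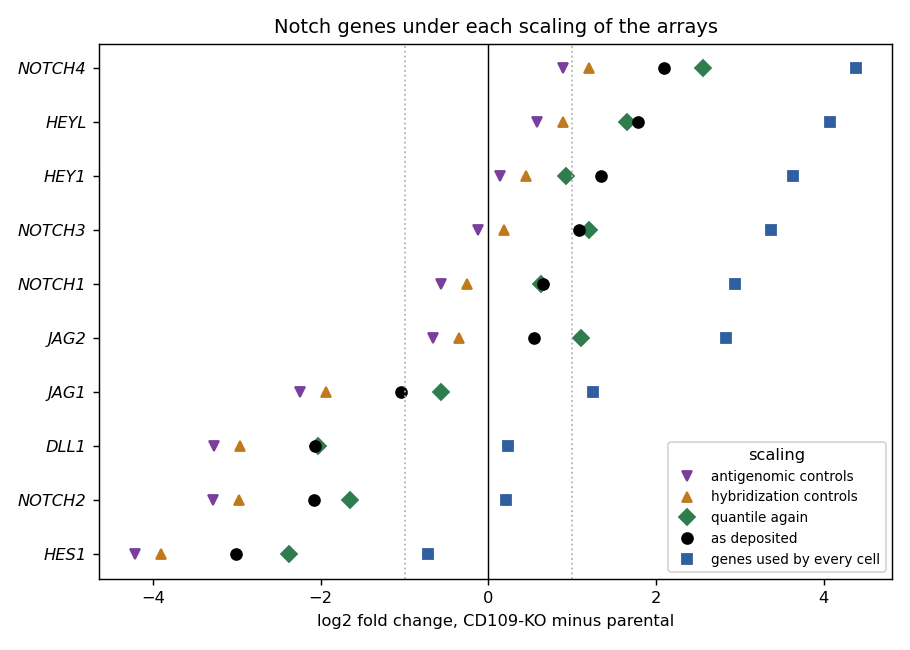
Log2 fold change of each Notch gene, CD109-KO minus parental (x axis), under 5 scalings of the arrays (symbols), with dotted lines at a fold change of 2. HES1 stays below 0 and NOTCH4 and HEYL stay above it in all 5, while NOTCH2, DLL1 and JAG1 cross 0 after centring on genes used by every cell, and NOTCH1, NOTCH3 and JAG2 cross it after centring on antigenomic controls.

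The other genes of the pathway were described by role, in 8 lists with 79 measured genes of 89 listed. Of these 79 genes, 29 were higher and 34 were lower, and 16 were not called. Their share called, 63 of 79, stands beside 63.1% of all genes, and their median log2 fold change was -0.06 beside 0.51 of all genes.

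RBPJ, the DNA-binding partner of cleaved Notch, had log2 signals of 10.13, 10.13 and 10.16 in clones 26, 32 and 180, against 6.03, 6.09 and 6.61 in parental samples 5, 2 and 6. The lowest clone was 3.52 above the highest parental sample, and the log2 fold change was 3.90 (SE 0.23, limma adjusted p = 1.77e-07). It was called under all 4 scalings, with values of 2.69 to 6.19, and whether its probes also match RBPJ pseudogenes on chromosome 9 was not tested. Of the 17 measured genes of the list of RBPJ, coactivators and corepressors, 6 were higher, 7 were lower and 4 were not called. Over all genes 36.2% were higher and 26.8% lower. After centring on genes used by every cell 11 of the 17 genes were higher and 1 lower. TLE4, a Groucho-type corepressor used by HES proteins, gave 6.65, 6.71 and 6.83 in the clones and 2.05, 1.86 and 2.32 in the parental samples, where it lay under the background, and was at least 6.04-fold higher. The histone deacetylase HDAC2 lay under the background in all 3 clones and was at least 10.3-fold lower as deposited. After centring on genes used by every cell HDAC2 had a log2 fold change of -1.89 (called lower). Its relative HDAC1 had a log2 fold change of -3.05 and was not called after centring on genes used by every cell (-0.76). The coactivator MAML1, which binds cleaved Notch on RBPJ, had a log2 fold change of 0.39 (limma adjusted p = 0.193) and was not called, except as higher after centring on genes used by every cell (2.68).

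Of 8 measured genes of receptor cleavage, 2 were higher, 2 were lower and 4 were not called, beside 36.2% higher and 26.8% lower of all genes. With antigenomic controls 1 was higher and 5 lower, and after centring on genes used by every cell 6 were higher and 1 lower. ADAM17, a protease that can cut Notch at the cell surface, gave 5.35, 4.45 and 4.81 in clones 26, 32 and 180, against 7.76, 8.70 and 8.58 in parental samples 5, 2 and 6. It was under the background in all 3 clones and at least 6.77-fold lower as deposited. Centring on genes used by every cell made the log2 fold change of ADAM17 -1.18 (called lower). ADAM10, the main protease of ligand-induced cleavage, gave 8.82, 8.69 and 8.72 in the clones and 8.69, 8.71 and 8.92 in the parental samples. These groups overlapped, and the log2 fold change was -0.03 (95% interval -0.50 to 0.43, limma adjusted p = 0.899), although centring on genes used by every cell made it 2.26 (called higher) and on antigenomic controls -1.24 (called lower). The subunits of gamma-secretase split. PSEN2, a catalytic presenilin, and PSENEN had log2 fold changes of 2.59 and 2.10, and NCSTN, which holds the substrate, had -2.58. PSENEN was not called with antigenomic controls (0.90), nor NCSTN after centring on genes used by every cell (-0.28).

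In the lists of ligands and of receptor glycosylation, DLL3 and DLL4 were higher, with log2 fold changes of 2.77 and 2.00. DLL4, the ligand of angiogenic sprouts, gave 6.64, 6.82 and 6.47 in clones 26, 32 and 180, against 4.79, 4.58 and 4.56 in parental samples 5, 2 and 6, and was not called with antigenomic (0.80) or hybridization controls (1.10). Of 7 ligands outside the set, 4 were higher and 3 were lower, beside 36.2% and 26.8% of all genes. With antigenomic or hybridization controls 1 was higher and 3 lower, and after centring on genes used by every cell 6 were higher and 0 lower. CNTN1 and MFAP2, proteins proposed as non-canonical ligands, lay under the background in all 3 clones. As deposited they were lower by at least 1.53-fold for CNTN1 and 2.34-fold for MFAP2. The MFAP2 call was kept in 1 of 6 omissions of an array and the CNTN1 call in 4 of 6. After centring on genes used by every cell CNTN1 was called higher (1.08) and MFAP2 was not called (0.63). Of 6 glycosylation genes, 2 were higher and 3 were lower, beside the same shares of all genes. After centring on genes used by every cell 4 of the 6 were higher and 0 lower. MFNG, a Fringe enzyme that extends fucose on the receptor, rose by 2.34 and XXYLT1, a xylosyltransferase, by 1.69, the second short of the threshold with antigenomic (0.48) or hybridization controls (0.79). EOGT and POGLUT1, which put sugars on the receptor's EGF repeats, lay under the background in all 3 clones and were lower by at least 1.06-fold for EOGT and 1.19-fold for POGLUT1, calls that ended after centring on genes used by every cell (log2 fold changes of 0.33 and 0.45).

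Of 15 ubiquitination and trafficking genes, 6 were higher and 7 were lower, beside 36.2% and 26.8% of all genes. With antigenomic or hybridization controls 1 was higher and 8 lower, and after centring on genes used by every cell 8 were higher and 5 lower. ITCH, an E3 ligase that targets Notch, gave 4.86, 5.00 and 4.45 in clones 26, 32 and 180, against 9.08, 9.25 and 9.36 in parental samples 5, 2 and 6, and was at least 12.5-fold lower against the background. That bound is for the values as deposited, and centring on genes used by every cell gave ITCH a log2 fold change of -2.17 (called lower). Its relative NEDD4L also lay under the background in all 3 clones and was lower by at least 4.21-fold. NUMB, an inhibitor of Notch that is shared out unequally at division, gave 4.10, 4.78 and 5.84 in the clones and 8.30, 8.26 and 8.41 in the parental samples. Only clone 180 was above its background, and the log2 fold change was -3.42. NEURL1, a ligase that acts on ligands, and NUMBL, a relative of NUMB, rose by 2.37 and 1.73, NUMBL short of the threshold with antigenomic (0.53) or hybridization controls (0.84).

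HES and HEY genes outside the set were higher or not called. Of 7 measured, 5 were higher, none was lower and 2 were not called, beside 36.2% of all genes higher. HES4, whose promoter shares the facing motifs of HES1, gave 7.98, 7.85 and 7.51 in clones 26, 32 and 180, against 6.73, 6.86 and 6.04 in parental samples 5, 2 and 6, a log2 fold change of 1.24 (SE 0.27, limma adjusted p = 0.00139). HES1, with the same motif spacing, had -3.01. HES4 was not called with antigenomic (0.03) or hybridization controls (0.34). HES5 gave 6.61, 6.64 and 6.68 in the clones and 4.57, 4.49 and 4.78 in the parental samples, and HES6, which encodes an antagonist of HES1, gave 8.66, 8.44 and 8.54 in the clones and 6.15, 6.53 and 6.18 in the parental samples. Both were above the background throughout, with log2 fold changes of 2.03 and 2.26, and HES6 was called under all 4 scalings (1.05 to 4.55), HES5 not with antigenomic controls (0.82) and not with hybridization controls (1.13). HEY2 lay under the background in all 6 arrays. After centring on antigenomic or hybridization controls 1 of the 7 genes was higher.

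Of 9 other Notch targets measured, 6 were lower and 2 were higher, beside 26.8% and 36.2% of all genes. With antigenomic or hybridization controls 6 were lower and 0 higher, after repeated quantile normalization 4 lower and 2 higher, and after centring on genes used by every cell 1 lower and 4 higher. NRARP, a feedback inhibitor that Notch induces, gave 4.95, 5.50 and 5.18 in clones 26, 32 and 180, against 6.15, 6.52 and 6.93 in parental samples 5, 2 and 6, and was at least 1.93-fold lower against the background, a change that turned to 0.97 (not called) after centring on genes used by every cell. CCND1, which encodes cyclin D1, had a log2 fold change of -3.72. CDKN1A, which encodes the cell cycle inhibitor p21, lay under the background in all 3 clones and was at least 6.99-fold lower, short of the threshold after that centring (a log2 fold change of -0.75). PTCRA and BCL2 rose by 1.56 and 1.51, and neither was called with antigenomic (0.35 and 0.30) or hybridization controls (0.66 and 0.61). Of 10 keratinocyte genes tied to Notch, 6 were lower and 2 were higher, beside 26.8% and 36.2% of all genes. This list pools differentiation genes with basal genes. The basal genes KRT5, KRT14, ITGA6 and ITGB4 were all lower. The differentiation genes split, with KRT10 and IVL lower, LORICRIN and SBSN higher, and KRT1 and FLG not called. KRT5 and KRT14 also stand among the squamous markers. With antigenomic or hybridization controls 8 were lower and 0 higher, after repeated quantile normalization 8 lower and 1 higher, and after centring on genes used by every cell 3 lower and 4 higher. KRT10, a keratin of the differentiating layer, was at least 7.75-fold lower, and ITGA6, an integrin of the basal layer, at least 15.8-fold lower against the background. Both bounds are for the values as deposited. After centring on genes used by every cell the log2 fold changes were -2.17 for KRT10 and -2.02 for ITGA6, both called lower. LORICRIN and SBSN, of the cornified layer, had log2 fold changes of 1.22 and 1.09, calls that ended with antigenomic controls (0.01 and -0.12) and with hybridization controls (0.32 and 0.19). SBSN lay under the background in all 3 clones, and its call was kept in 2 of 6 omissions of an array.

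**Figure D5:**
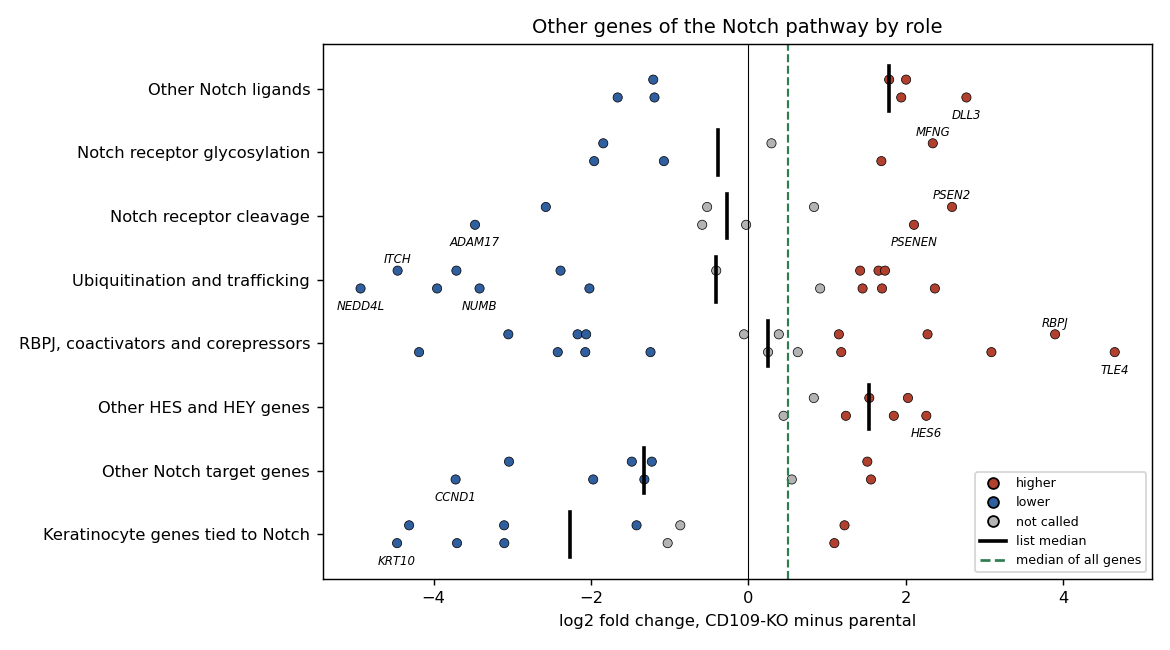
Log2 fold change, CD109-KO minus parental (x axis), of 79 measured genes of the Notch pathway by role (rows), in red where higher, blue where lower and grey where not called. Black bars are list medians and the dashed line the median of all genes at 0.51. RBPJ and TLE4 lie farthest right, NEDD4L farthest left, and no HES or HEY gene outside the set was lower as deposited.

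Markers of endothelium, smooth muscle and pericytes, fibroblasts and blood cells were read beside the Notch genes. Over all genes 36.2% were higher and 26.8% lower, and the mean background level was 5.59 in CD109-KO arrays, against 4.14 in parental ones. Of 9 endothelial markers, 6 were higher, and their mean log2 signal was 5.43 in every CD109-KO array, against 4.12 to 4.32 in parental arrays. PECAM1, CDH5, KDR and TEK lay under the background in all 3 CD109-KO arrays, while VWF, TIE1, CLDN5 and ESAM lay above it. CDH5 had a log2 fold change of -0.17 (not called) and lay above the background in all 3 parental arrays. Of 7 smooth muscle and pericyte markers, 6 were higher, with a mean of 6.40 to 6.43 in CD109-KO arrays, against 4.06 to 4.61 in those of parental cells, and MYH11 and CSPG4 lay under the background in CD109-KO arrays. Of 8 fibroblast markers, 6 were higher and LUM was lower, with a mean of 6.20 to 6.36 in CD109-KO arrays, against 4.52 to 4.90 in those of parental cells, and LUM, PDGFRA and FAP lay under the background there. Of 7 blood cell markers, 5 were higher and 1, CD68, was lower, with a mean of 5.49 to 5.56 in CD109-KO arrays, against 4.68 to 5.12 in those of parental cells. CD68 was bright in the parental samples, with a mean of 9.79 against 5.63 in the clones (a log2 fold change of -4.16). PTPRC and CD34 lay under the background in CD109-KO arrays. After centring on antigenomic controls 0 endothelial, 3 smooth muscle, 3 fibroblast and 0 blood cell markers were higher. Their part in the values of NOTCH3, NOTCH4, HEYL and DLL4 was not tested.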

How the data were processed

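Total RNA from 3 clones without CD109 (CD109-KO) and from 3 samples of parental A431 cells was hybridized to 6 Affymetrix Clariom S human arrays. For 24351 probe sets the authors deposited log2 signals, made with Gene Expression Console (background correction and normalization), and they used Transcriptome Analysis Console for the comparison, with hg38 named in the submitters' processing notes. The sources used here do not name the normalization algorithm, and array medians over gene probe sets were 5.20 to 5.41. Values were used as deposited.

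Control probe sets (2903) did not enter the tests. Of 21448 gene probe sets, 17709 have 1 symbol in the platform annotation, all found by Entrez ID in RefSeq (GRCh38.p14), and 3739 are unnamed here. For 20 genes with several probe sets the brightest stood for the gene. CD109-KO minus parental was tested with limma 3.58.1 (R 4.3.3), with Benjamini-Hochberg adjustment over all gene probe sets, after a check on simulated arrays. Background was the 95th percentile of 349 olfactory receptor genes of an array. With 6 arrays, their number limits the precision. Named were the 10 genes, 12 fixed pathway genes, the targeted gene, and of each list the 2 largest called rises and falls without overlap. Outside that rule, after their values were seen, NOTCH2NLA, ITIH4, IVL, ITGB4, KRT1, FLG and the named markers were added. Of the fixed genes, 2 are not reported here. The genes, lists and tests were chosen with earlier results of these data known. Alternatives were another prior, the methods' t-test, 4 scalings, a filter on dim probe sets, other thresholds, the mean of probe sets, other background percentiles and leaving out each array.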

Additional observations from a re-analysis of the deposited data

Results flagged for a closer look

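Control probe sets outside the comparison differed between the groups. The median log2 signal of 23 antigenomic background controls was 4.06, 3.82 and 3.80 in CD109-KO clones 26, 32 and 180, against 2.64, 2.88 and 2.55 in parental samples 5, 2 and 6, a difference of 1.21 on the log2 scale. That of 4 hybridization controls was 11.59, 11.50 and 11.51 in CD109-KO clones 26, 32 and 180, against 10.62, 11.08 and 10.21 in parental samples 5, 2 and 6, a difference of 0.90. For both kinds all 3 CD109-KO arrays lay above all 3 parental arrays. Their part in the values of the Notch genes was not tested beyond the centrings on them. Groups of 3 were too small for a test of outlying samples.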

How the results depend on the processing

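Under the trend and robust prior and with the mean of each gene's probe sets, all 10 Notch genes kept their direction and their side of the threshold, and the filter on dim probe sets removed HEY1 and changed no other. No paired analysis was possible because the groups share no replicate numbers. Scaling moved the most. With antigenomic controls the log2 fold changes were -0.56 for NOTCH1, -0.13 for NOTCH3, 0.89 for NOTCH4, -0.66 for JAG2, 0.14 for HEY1 and 0.58 for HEYL, 0 of the 10 genes were higher, and 9 other pathway genes were. With hybridization controls they were -0.25 for NOTCH1, 0.18 for NOTCH3, -0.35 for JAG2, 0.45 for HEY1 and 0.89 for HEYL, with 1 of the 10 genes and 10 other pathway genes higher. After centring on genes used by every cell they were 2.94 for NOTCH1, 0.21 for NOTCH2, 1.25 for JAG1, 2.84 for JAG2, 0.23 for DLL1 and -0.71 for HES1, with 7 of the 10 genes higher and 0 lower, and 50 other pathway genes higher and 11 lower. After a repeated quantile normalization they were -0.56 for JAG1, 1.11 for JAG2 and 0.92 for HEY1, so that JAG2 was called higher and JAG1 and HEY1 were not called. Each centring shifts all genes of an array by a fixed amount. For the quantile normalization the cause was not tested. Over all genes 57.5% of calls were higher as deposited, 6.86% with antigenomic controls (553 higher and 7504 lower), 13.3% with hybridization controls (934 and 6107), 92.2% with genes used by every cell (13375 and 1126) and 44.7% after the filter (3712 and 4595), against 6410 higher and 4746 lower as deposited.

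With the methods' t-test NOTCH3 (1.08), JAG1 (-1.04) and DLL1 (-2.06) were not called, 2 of the 10 genes and 22 other pathway genes were lower, and 4391 genes were higher and 3140 lower. That test takes each gene's spread from its own values. At a fold change of 4, 1 of the 10 genes was higher and 3 were lower, and of the other pathway genes 12 were higher and 22 lower. With the 99th percentile of olfactory receptors as background, 3 of the 10 genes lay above it in all CD109-KO arrays, against 8 at the 95th percentile.

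Leaving out each array gave 0.91 to 1.29 for NOTCH3 and -1.28 to -0.73 for JAG1, the 2 genes whose calls ended in some omissions. The other ranges were 0.52 to 0.80 for NOTCH1, -2.21 to -1.97 for NOTCH2, 1.97 to 2.24 for NOTCH4, 0.38 to 0.64 for JAG2, -2.39 to -1.73 for DLL1, -3.18 to -2.72 for HES1, 1.22 to 1.47 for HEY1 and 1.67 to 1.91 for HEYL. Between 3 and 4 of the 10 genes were higher and between 3 and 4 lower, and of the other pathway genes 25 to 30 were higher and 30 to 34 lower.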
